A study of Mus musculus with 4 samples.

Results

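The 48 genes described here encode the factors that start protein synthesis in mouse pancreatic islets. They are the protein-coding genes of the count files whose symbol reads Eif followed by a digit from 1 to 6, without the Eif4ebp and Eif2ak genes, which regulate these factors. They are 48 of 43629 genes counted, of which 21551 are protein-coding. The series has 4 RNA sequencing libraries of islets of the strain C57BL/6, 1 in each group. The group called labelled knockout here carries the genotype Rip2;IMP2, described in the title as a knockout of IMP2 specific to islets. The IMP2 RIP group is RNA recovered with the RNA-binding protein IMP2 by immunoprecipitation (RIP) from WT islets, and the IgG group, the usual antibody control, also has the genotype WT. The control group has the genotype control. Rip2 usually stands for a rat insulin promoter, which works in beta cells, and the gene may be intact in the remaining islet cells. The labels used here give no ages and do not say whether islets of several animals were pooled.

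Translation of most mRNAs starts when the small ribosomal subunit, carrying the initiator tRNA on eIF2, is loaded onto a capped mRNA and scans for a start codon. The cap is held by eIF4E, eIF4G is the scaffold, eIF4A unwinds the leader, and the large eIF3 complex bridges mRNA and ribosome. eIF2 is recharged with GTP by eIF2B, and kinases that phosphorylate eIF2 shut this step down under stress. Islet beta cells make insulin at a high rate, and mutations of the eIF2 kinase PERK cause diabetes in humans and mice. IMP2, encoded by Igf2bp2, belongs to a family of proteins that regulate stability, transport and translation of mRNA.

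The libraries hold 24275628 gene counts in the labelled knockout, 6025594 in the RIP, 13195732 in the IgG library and 26350813 in control islets. Levels are given as CPM, counts scaled in the usual way to the library's total of gene counts. Igf2bp2 itself had 222 counts in the library labelled knockout, 186 in the RIP, 458 in IgG and 255 in control islets. In CPM these are 9.145, 30.87, 34.71 and 9.677. Igf2bp2 thus does not set the labelled knockout apart from control islets, and a count over the whole gene does not check a partial deletion. The libraries differ in cell content. Summed over 15 marker genes each, lymphocyte RNA stood at 343 CPM in the labelled knockout and 1860 CPM in control islets, and RNA of dividing cells at 217.9 and 595 CPM. All 15 genes of either list were detected in both libraries. Markers of brown fat and other adipocytes, 14 genes, summed to 230.9 CPM in the labelled knockout, 3017 in the RIP, 52180 in the IgG library and 275.2 in control islets. Markers of beta and alpha cells, 15 genes, summed to 359600, 253200, 1055 and 323500 CPM in the same libraries. The library labelled IgG thus held almost no islet RNA, with Irx1, of the 15, at 0, which goes against its tissue label. In bulk RNA, fewer cells of a type and less RNA per cell cannot be told apart.

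All groups of initiation factors were present in control islets. There, 47 of the 48 genes had counts, and together they took 5122 CPM. Their sum was 4477 CPM in the labelled knockout, 3817 in RIP and 5211 in IgG. Eif4e1b, a germline form of the cap-binding protein, had 0 counts in each library, which allows up to 0.124 CPM in the labelled knockout, 0.498 in the RIP, 0.227 in the IgG library and 0.114 in control islets (3 counts, for counting error only).

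Genes were compared with each other per kb of annotated exon. In control islets the highest levels were those of Eif5a at 134.1 CPM per kb and Eif1 at 109.3 CPM per kb. Eif5a encodes the hypusine-bearing factor that helps the ribosome through difficult peptide bonds, and Eif1 guards start codon choice. The eIF3 subunit genes Eif3f and Eif3h followed at 78.8 and 75.8 CPM per kb, then Eif4g2 at 58.1 CPM per kb. Eif4g2 encodes a relative of the eIF4G scaffold that lacks the site for eIF4E. Eif5a, Eif1, Eif3f and Eif3h also exceeded Eif4g2 in the labelled knockout, at 112.6, 120.2, 60.7 and 55.4 against 43.5 CPM per kb. At the low end in control islets were Eif5a2, a second eIF5A gene, at 1.56 CPM per kb, Eif3j1 at 1.28 and the Y-linked Eif2s3y at 0.456.

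**Figure D1:**
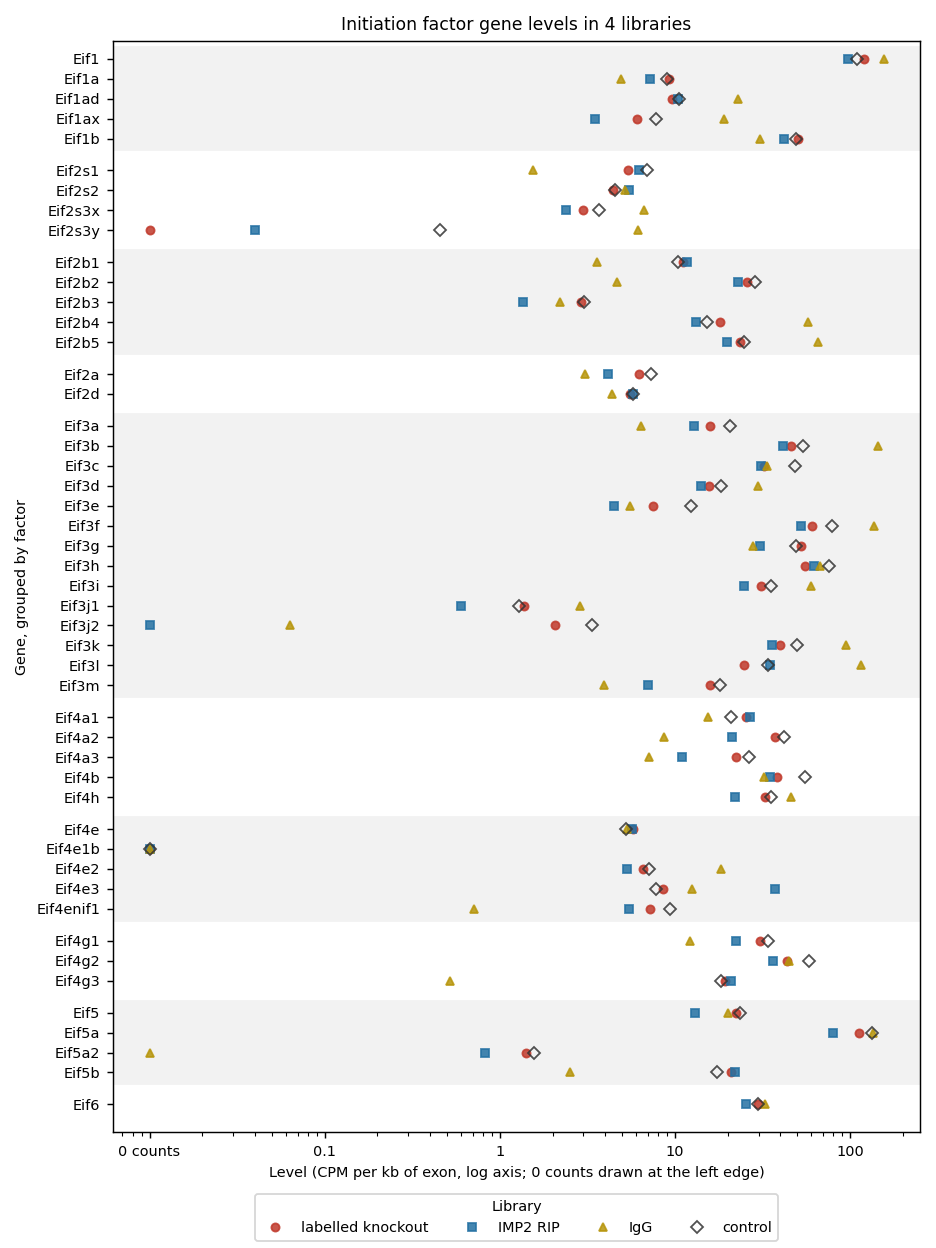
Level of each of the 48 genes in each library, in CPM per kb of annotated exon on a log axis, with genes at 0 counts drawn at the left edge. Labelled knockout and control points lie close together for most genes, while IgG points lie apart on both sides: Eif4g3 stood at 0.521 CPM per kb in the IgG library and 18.2 in control islets.

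Between the labelled knockout and control islets most initiation factor genes differed by small factors. The groups with the lowest median log2 ratios were eIF3, at -0.30, and eIF2, at -0.26 over 3 measured genes. The lower quartile of all measured genes was -0.32. Eif3e and Eif3j2 were called lower in the labelled knockout and no member was called higher. Each ratio below is the labelled knockout over control, scaled by TMM, a trimmed mean of log ratios, with an exact 95% interval that covers counting error only. A gene was called when this interval excluded 1 and the ratio reached 1.5-fold, among genes of at least 1 CPM on average over both libraries. Of all 15735 genes measured this way 21.4% were called, 6.13% higher and 15.3% lower. Of the 46 members measured, 2 were called, both lower, a smaller share than among all genes. Their median log2 ratio was -0.10, against 0.00 for all measured genes. Of the members' ratios 31 of 46 lay below 1, against 7827 of 15735 for all measured genes. The middle of the members' log2 ratios was narrower, with an interquartile range of 0.38 against 0.54 for protein-coding genes. The genes set beside the members were not matched to them in level. A narrower spread and fewer calls therefore need not be particular to initiation factors. No replicate stands behind any of these differences, since each group is 1 library.

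eIF3 is built from 13 kinds of subunit, a to m, and the files hold 14 genes for it because subunit j has a pair of genes. In the labelled knockout 12 of these 14 had a ratio below 1, with a median log2 ratio of -0.30. The other 32 measured members had a median of -0.04, with 19 below 1. Eif3e (ENSMUSG00000022336, mm10 chromosome 15, 43250058 to 43282719, minus strand) had 1222 counts in the labelled knockout, 182 in the RIP, 490 in the IgG library and 2186 in control islets. In CPM these are 50.3, 30.2, 37.1 and 82.96. Control islets held the highest of the 4 levels. Labelled knockout over control gave a ratio of 0.628 (0.585 to 0.674).

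Eif3c, a core subunit, stopped just short of the limit, with 113.3 CPM in the labelled knockout and 170.4 in control islets and a ratio of 0.689 (0.657 to 0.722). Under library totals it was called lower too, at a log2 ratio of -0.59. Eif3h and Eif3l had ratios of 0.756 and 0.763, Eif3a 0.792 and Eif3f 0.798. Eif3k had 0.825, Eif3d, a subunit that can bind the cap of some mRNAs and shares 43.3% of its exon bases with Gm17638 on the other strand, 0.890, Eif3b 0.891, Eif3m 0.909 and Eif3i 0.910. Only Eif3g, at 1.11 (1.05 to 1.17), and Eif3j1, at 1.11 (0.903 to 1.36), lay above 1, under each of the 4 scalings tried.

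The genes for the loosely bound subunit j are Eif3j1, with introns, and Eif3j2 (ENSMUSG00000043424, chromosome 18, 43475418 to 43477796, minus strand), whose annotated exon fills the gene's whole span of 2379 bases. Eif3j2 had 120 counts in the labelled knockout, 0 in the RIP, 2 in the IgG library and 211 in control islets. Labelled knockout over control gave a ratio of 0.639 (0.507 to 0.804). Eif3j1 had 194, 21, 221 and 197 counts in the same libraries. Of all 50-base windows in the transcripts of Eif3j2, 91.9% also occur in a transcript of another gene, mostly Eif3j1. Reads aligned more than once stand in a closing entry of the files and not with a gene, so the split between the pair is uncertain.

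Cell type markers also differed between the labelled knockout and control islets. All 15 lymphocyte genes and all 15 dividing-cell genes were called lower in the labelled knockout, with median log2 ratios of -2.40 and -1.17. Beta and alpha cell markers lay above 1 for 15 of 15 genes, 6 of them called higher, with a median of 0.52, and 4 of 13 measured acinar markers were called higher and 0 lower, with a median of 0.39. Their part in the eIF3 ratios was not tested.

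**Figure D2:**
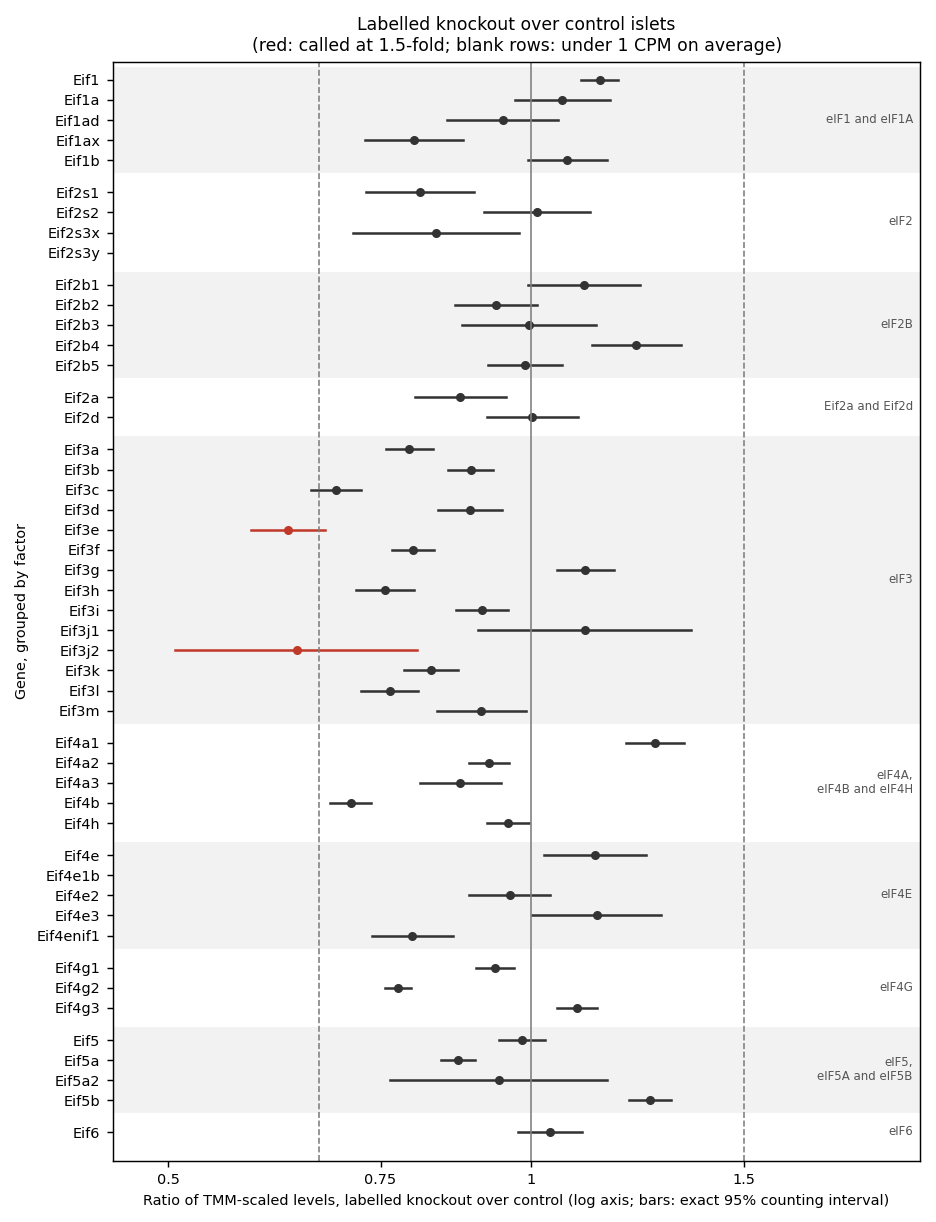
Ratio of TMM-scaled levels, labelled knockout over control, for each measured gene on a log axis, with exact 95% counting intervals and dashed lines at 1.5-fold in each direction. Of the 14 eIF3 genes 12 lie left of 1, with Eif3e at 0.628, while Eif4a1 at 1.27 is farthest right.

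The factors that load mRNA were more mixed. Eif4b, which stimulates the helicase eIF4A, had 169.9 CPM in the labelled knockout and 248.3 in control islets, a ratio of 0.708 (0.681 to 0.737). The helicase gene Eif4a1 had 110.9 CPM in the labelled knockout, 116.7 in the RIP, 66.7 in the IgG library and 90.7 in control islets. Its ratio of labelled knockout over control, 1.27 (1.20 to 1.34), was the highest of the 46. The second helicase gene Eif4a2 had 198.6 CPM in the labelled knockout, 113.0 in the RIP, 46.1 in the IgG library and 222.9 in control islets, and a ratio of 0.922 (0.888 to 0.958). Per kb, Eif4a1 thus made up 40.8% of the summed level of the pair in the labelled knockout, 56.0% in the RIP, 64.1% in the IgG library and 33.4% in control islets. Of the 50-base windows of Eif4a1, 28.4% occur in other transcripts, among them the pseudogene Eif4a-ps4, which itself held 93.3 CPM in the labelled knockout and 122.7 in control islets. Eif4a3, a relative that sits in the exon junction complex, had a ratio of 0.873, and Eif4h, a cofactor of eIF4A, 0.956.

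Of the scaffold genes, Eif4g1 had a ratio of 0.933 (0.900 to 0.967), Eif4g2 0.775 (0.756 to 0.795) and Eif4g3 1.09 (1.05 to 1.13). Eif4g2 had the most counts of all members in both libraries, with 10729 in the labelled knockout and 15555 in control islets. The cap-binding genes had ratios of 1.13 for Eif4e, 0.959 for Eif4e2, whose product binds the cap without recruiting eIF4G, and 1.13 for Eif4e3. Eif4enif1, which encodes a transporter of eIF4E, had 0.797 (0.737 to 0.861).

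Most genes of the initiator tRNA and start codon steps lay near 1. Eif1 had 252.1 CPM in the labelled knockout, 205.0 in the RIP, 326.2 in the IgG library and 229.3 in control islets. Labelled knockout over control gave a ratio of 1.14 (1.10 to 1.18), and its paralog Eif1b had 1.07. Of the eIF1A genes, Eif1a had a ratio of 1.06 and the X-linked Eif1ax 0.799 (0.728 to 0.877), and Eif1ad, which encodes a protein with an eIF1A domain, had 0.947. The alpha subunit of eIF2, the target of the stress kinases, is encoded by Eif2s1, at 0.809 (0.730 to 0.896), and the beta subunit by Eif2s2, at 1.01. All 5 subunits of eIF2B were between 0.935 (Eif2b2) and 1.22 (Eif2b4, 1.12 to 1.33), and a median log2 ratio of -0.01 was the nearest to 0 of the groups with 3 or more measured genes. Eif2a and Eif2d, which can bring tRNA to the ribosome without eIF2, had 0.873 and 1.002. For subunit joining, Eif5b had 204.4 CPM in the labelled knockout, 214.3 in the RIP, 24.4 in the IgG library and 168.8 in control islets, with a ratio of labelled knockout over control of 1.25 (1.20 to 1.31). Annotated exons of Eif5b share 16.9% of their bases with Rev1 on the other strand, so its counts may hold reads of that gene or lack those in the overlap. Eif5 had 0.982, Eif5a 0.870, Eif5a2 0.939, and Eif6, which keeps the large subunit apart until it is needed, 1.04.

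The gamma subunit of eIF2 has an X-linked gene, Eif2s3x (chromosome X), and a Y-linked gene, Eif2s3y (chromosome Y). Eif2s3y had 0 counts in the labelled knockout, 1 in the RIP, 338 in the IgG library and 50 in control islets. Eif2s3x had 276, 55, 334 and 372 counts in the same libraries, with a ratio of labelled knockout over control of 0.834 (0.711 to 0.977). Eif2s3y averaged under 1 CPM over the labelled knockout and control, so it had no call, and against the floor of 3 counts it was at least 14.8-fold lower in the labelled knockout. None of the 50-base windows of Eif2s3y occurs exactly in another annotated transcript. Of those of Eif2s3x, 34.6% do, among them in Gm2223 and Eif2s3x-ps1. Reads aligned more than once are not counted with a gene, so the counts of Eif2s3x may be too low. All genes of the Y chromosome summed to 20 counts in the labelled knockout, 59 in the RIP, 790 in the IgG library and 197 in control islets. In CPM these sums are 0.824, 9.79, 59.87 and 7.48, so the RIP stood above control islets. Xist, the RNA of the inactive X chromosome in females, had 18166 counts in the labelled knockout, 3803 in the RIP, 27 in the IgG library and 15804 in control islets. It was thus abundant in both islet libraries and the RIP and scarce in IgG. The sex of the mice was not in the labels used here, and its part in the Eif2s3y counts was not tested.

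Many mRNAs of the translation machinery begin with a run of pyrimidines, the TOP motif, through which the mTOR pathway controls their translation. RefSeq windows around the transcription start (GRCm38.p6, the assembly of mm10) were found for 38 of the 48 genes. The other 10 could not be searched, and they include Eif3e and Eif3j2, the members called. The rest are Eif1a, Eif2b3, Eif3h, Eif3i, Eif4e1b, Eif4e3, Eif4g2 and Eif6. They were searched on the strand of the gene for a C followed by at least 4 bases that are each C or T, beginning within 10 bases of the annotated start on either side. Such a tract was present for 13 of the 38 genes, 34.2%, against 34.4% of the 27025 genes of the table and 30.7% of its 32851 windows, so it was no more frequent here. Among measured members, 11 of 12 with a tract had a ratio of labelled knockout over control below 1, with a median log2 ratio of -0.13. Of the 25 without a tract 14 lay below 1, with a median of -0.06. The same shares over all genes with and without a tract were not computed, and a part of the tract in these ratios was not tested. A match is a description of these letters, and annotated starts can lie some bases from the true ones.

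The windows of 40 bases below, 20 on either side of the start (the first base of the transcript is base 21), show the genes with a window and the lowest ratios, Eif3c, Eif4b, Eif3l, Eif3a, Eif4enif1 and Eif3f. Those with the highest ratios follow, Eif1, Eif2b4, Eif5b and Eif4a1, and then the X-linked and Y-linked genes of eIF2 gamma. Capitals mark the longest tract found.
Eif3c, chr7:126566347-126566386, minus strand: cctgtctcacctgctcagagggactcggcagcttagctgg
Eif4b, chr15:102073753-102073792, plus strand: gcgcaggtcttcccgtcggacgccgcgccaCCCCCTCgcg
Eif3l, chr15:79075203-79075242, plus strand: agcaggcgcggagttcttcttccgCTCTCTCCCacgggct
Eif3a, chr19:60790674-60790713, minus strand: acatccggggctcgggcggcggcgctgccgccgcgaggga
Eif4enif1, chr11:3202333-3202372, plus strand: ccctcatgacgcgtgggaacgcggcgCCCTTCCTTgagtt
Eif3f, chr7:108934395-108934434, plus strand: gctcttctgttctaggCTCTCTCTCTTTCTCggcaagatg
Eif1, chr11:100319929-100319968, plus strand: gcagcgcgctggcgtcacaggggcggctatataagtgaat
Eif2b4, chr5:31193120-31193159, minus strand: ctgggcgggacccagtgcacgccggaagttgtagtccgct
Eif5b, chr1:37997990-37998029, plus strand: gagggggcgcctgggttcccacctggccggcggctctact
Eif4a1, chr11:69672404-69672443, minus strand: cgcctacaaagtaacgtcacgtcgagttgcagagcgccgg
Eif2s3x, chrX:94212632-94212671, minus strand: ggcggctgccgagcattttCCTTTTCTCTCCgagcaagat
Eif2s3y, chrY:1010575-1010614, plus strand: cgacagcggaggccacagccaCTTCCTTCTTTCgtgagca
The printed genes were picked by their ratio, and Eif4e, the next below Eif1 at a log2 ratio of 0.18, has a tract, so they give no comparison of the ends. Eif2s3x and Eif2s3y both have one close to the start, of 12 bases each.

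Other genes of translation were examined as lists. Regulators and partners of initiation had 40 of 41 matched genes measured, 0 called higher and 6 called lower in the labelled knockout, against 15.3% called lower among all genes, with a median log2 ratio of 0.01. Mknk2, a kinase of eIF4E, had 68.8 CPM in the labelled knockout and 169.3 in control islets, a ratio of 0.421. Eif4ebp2, an inhibitor of eIF4E, had a ratio of 0.438, Pabpc1, the main poly(A)-binding protein, 0.482, and the RNA helicase gene Dhx9 0.549. Bzw2 and Bzw1, whose products mimic eIF5, had 0.598 and 0.614. The highest ratios were 1.35 for Pabpc4, another poly(A)-binding protein, and 1.31 for Mcts2. Kinases of eIF2 lay near 1, with Eif2ak1 at 0.873, Eif2ak2 at 1.11, Eif2ak3 (PERK) at 1.11 and Eif2ak4 (GCN2) at 0.869, and so did Atf4, a transcription factor translated when eIF2 is phosphorylated, at 1.11.

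Elongation and termination factors had 2 of 14 called lower and 0 higher in the labelled knockout, with a median log2 ratio of -0.17. Among all genes measured 15.3% were called lower and 6.13% higher. Eef1a1, which brings aminoacyl-tRNA to the ribosome, had 1126 CPM in the labelled knockout and 1892 in control islets, a ratio of 0.617. Eef2, the translocase, had 1134 and 1853 CPM in the same libraries, a ratio of 0.634. The highest were Gspt2 at 1.45 and Eef1a2 at 1.26. Cytosolic aminoacyl-tRNA synthetases had 1 of 20 called lower, Vars at 0.620, 0 higher and a median of -0.09. Dars followed at 0.763, and the highest were Farsa at 1.11 and Nars at 1.11. The initiation factors, with a median of -0.10, lay between these lists.

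**Figure D3:**
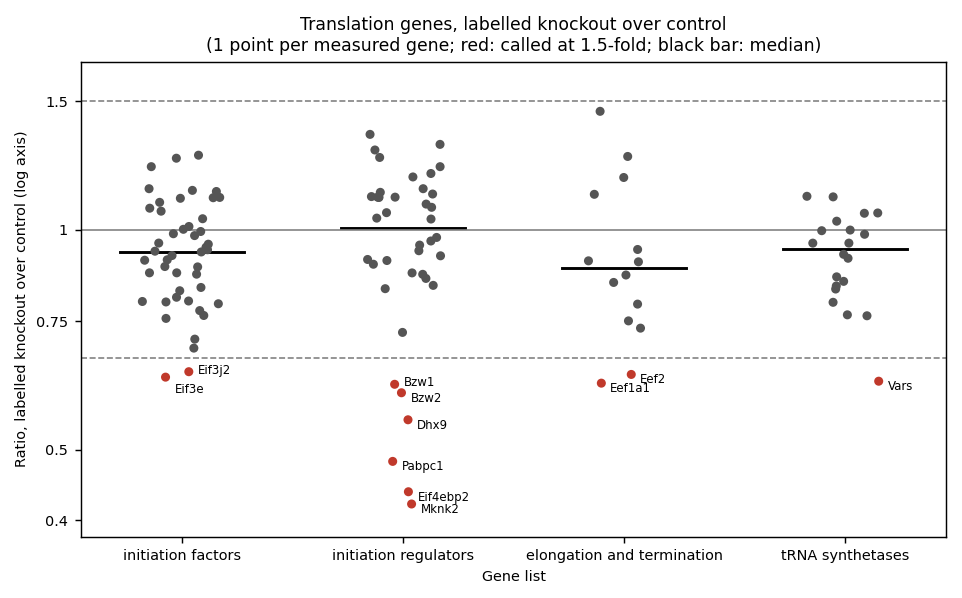
Ratio of labelled knockout over control on a log axis for each measured gene of 4 lists, with the median of each list as a bar and called genes in red. The called genes of all 4 lists lie below 1, from Mknk2 at 0.421 to Eif3j2 at 0.639.

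The RIP was also compared with control islets. As the IgG library held almost no islet RNA, recovery with IMP2 cannot here be told apart from background RNA or tissue content. Most initiation factor genes stood close to their islet level, and Eif4e3 was the 1 member called higher. Here and for the IgG library a call needs 2-fold. Of 15968 genes measured 41.2% were called, 16.8% higher and 24.3% lower. Of 47 members measured 1 was called higher and 4 lower, a smaller share than among all genes in either direction, again not matched in level. Their median log2 ratio of RIP over control was -0.23, against -0.12 for all measured genes. The median is the same, -0.23, with the gene at 0 set at its bound. The RIP and IgG libraries may hold many reads per recovered molecule. Genes with 0 counts in both islet libraries and over 5 counts in the library had a median of 18 counts in RIP and 21 in IgG, taken here as a rough number of reads per molecule, and intervals would then be too narrow. No batch or second library is available to check these ratios.

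Eif4e3 (ENSMUSG00000093661, chromosome 6, 99625135 to 99666771, minus strand) encodes an unusual cap-binding protein of the eIF4E family. It had 523 counts in the labelled knockout, 563 in the RIP, 417 in the IgG library and 519 in control islets. In CPM these are 21.5, 93.4, 31.6 and 19.7, the RIP being highest. The ratio of RIP over control was 5.76 (5.10 to 6.5), and the call held under each of the 4 scalings and on estimated molecules. The ratio of RIP over IgG was 1.83 (1.61 to 2.09), under the 2-fold limit, and it reached the limit under library totals, at a log2 ratio of 1.56. IgG over control was 3.02 (2.65 to 3.44) and also called higher, but not under library totals, at a log2 ratio of 0.68. Eif4e3 made up 77.1% of the summed level per kb of Eif4e, Eif4e2 and Eif4e3 in the RIP, against 38.8% in control islets. Of its annotated exon bases, 14.8% overlap Gm20696 on the same strand.

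Next in the RIP came Eif4a1, at a ratio of 1.56 (1.43 to 1.7) over control, and Eif5b, at 1.54 (1.45 to 1.64), both under the limit. The members called lower in the RIP than in control islets were Eif3e, at 0.442 (0.378 to 0.514), Eif3m, at 0.471 (0.384 to 0.574), Eif2s3y and Eif3j2. Eif3m, a subunit of the eIF3 core, had 18.1 CPM in the RIP and 46.6 in control islets. Eif3j2 was at least 13.2-fold lower in the RIP than in control islets against the floor of 3 counts in the RIP. Eif2s3y had 1 count in the RIP, and its ratio of RIP over control was 0.106 (0.00264 to 0.619). On estimated molecules Eif3e was called lower, and Eif3m, Eif2s3y and Eif3j2 were not. Of the 12 eIF3 genes other than the subunit j pair, 11 had a ratio of RIP over control below 1, with a median log2 ratio of -0.27. Among all measured genes 8753 of 15968 lay below 1, with a median of -0.12 and a lower quartile of -0.955.

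Among the regulators, Pabpc4 had 686.1 CPM in the RIP and 52.6 in control islets, a ratio of 15.8. Ddit3 and Atf5, transcription factors of the stress response, had ratios of RIP over control of 2.15 and 2.09 and were also called higher, and Dhx9 at 0.146, Paip2b at 0.394 and Mknk2 at 0.430 were called lower. Among all genes measured 16.8% were called higher and 24.3% lower in RIP over control. Of 14 elongation and termination factors 0 were called higher and 3 lower, with Eef1a1 at 0.443. Of 20 synthetases 0 were called higher and 3 lower, with Vars at 0.340 the lowest. Median log2 ratios of RIP over control were -0.14, -0.38 and -0.44 for the 3 lists. Of the brown fat and adipocyte markers, 14 of 14 were called higher in RIP over control, with a median log2 ratio of 7.34. Lymphocyte markers were called lower for 15 of 15 genes and dividing-cell markers for 10 of 15, with median log2 ratios of RIP over control of -3.10 and -1.70. Their part in the results was not tested.

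The RIP and IgG libraries differ in tissue markers, with beta and alpha cell markers at 253200 CPM in the RIP and 1055 CPM in IgG, so antibody and tissue content cannot be told apart in RIP over IgG. The values below describe these libraries and do not measure recovery with IMP2. Initiation factor genes differed by large factors in both directions, Eif5a2, Eif4g3 and Eif5b being highest in the RIP. Of 14822 genes measured 73.7% were called, 43.2% higher and 30.5% lower. Of 46 members measured 6 were called higher and 20 lower. Their median log2 ratio of RIP over IgG was -0.81, or -0.81 with the gene at 0 set at its bound, against 0.44 for all measured genes. The side of 0 on which these medians fall depends on the scaling. With library totals as the scaling, members had -0.12 and all genes 1.13. With hormone and acinar genes left out of the totals, members had 0.31 and all genes 1.56. A scaling moves every gene of the comparison alike, so the gap between members and all genes is fixed. For RIP over IgG, 14 of 14 adipocyte markers were called lower and 15 of 15 beta and alpha cell markers higher. Their part in the members' ratios was not tested.

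All 6 members called higher in the RIP than in IgG held under the 4 scalings. Library totals and totals without hormone and acinar genes raise every ratio of RIP over IgG, so these calls could hardly be lost. The same shift works against calls of lower, so holding under the scalings does not compare the directions. Eif4g3 (ENSMUSG00000028760, chromosome 4, 137993022 to 138208508, plus strand), the largest form of the scaffold gene by exon length, had 212.5 CPM in the labelled knockout, 231.8 in the RIP, 5.76 in the IgG library and 201.6 in control islets. The IgG library stood far below the other 3. The ratio of RIP over IgG was 24.97 (19.8 to 31.9). Eif5a2 (ENSMUSG00000050192, chromosome 3, 28781276 to 28798846, plus strand) had 173 counts in the labelled knockout, 25 in the RIP library, 0 in IgG and 207 in control islets, and was at least 11.3-fold higher in the RIP than in IgG, against the floor of 3 counts. Its 25 counts stand for about 1.39 estimated molecules. On estimated molecules Eif5a2 and Eif2s1 were not called, and the other 4 were. Eif5b had a ratio of RIP over IgG of 5.45 (4.82 to 6.17), Eif4enif1 4.78 (3.57 to 6.47), Eif2b2 3.04 (2.44 to 3.82) and Eif2s1 2.52.

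Of the 20 members called lower, 9 held under the 4 scalings. They were Eif1ax, Eif2b4, Eif2b5, Eif2s3x, Eif2s3y, Eif3b, Eif3j1, Eif3l and Eif4e2. Eif2s3y had a ratio of RIP over IgG of 0.00402 (0.000101 to 0.0225), resting on 1 count in the RIP. Eif1ax had 111 counts in the RIP against 1320 in the IgG library, a ratio of 0.114 (0.0932 to 0.139). Eif3j1 had a ratio of 0.129 (0.0783 to 0.202) and Eif2b4 0.142 (0.122 to 0.164). Eif3l had 126.3 CPM in the RIP against 418.1 in the IgG library, a ratio of 0.187. The catalytic subunit of eIF2B is encoded by Eif2b5, at 51.6 CPM in the RIP against 170.7 in the IgG library, a ratio of 0.188. Of the eIF3 genes 7 of 13 measured were called lower and 0 higher, where 30.5% of all genes were called lower and 43.2% higher. Of these 7, Eif3b, Eif3j1 and Eif3l were lower under the 4 scalings. Against the same shares of all genes, regulators had 9 higher and 11 lower of 40, elongation and termination factors 4 and 8 of 14, and synthetases 4 and 3 of 20. The lowest regulators were Mknk2 at 0.0498 and Eif4ebp1 at 0.0552, and the highest were Eif2ak3 at 209.8 (57.6 to 1740) and Eif2ak4 at 165.7 (45.38 to 1376), each resting on 2 counts in the IgG library.

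**Figure D4:**
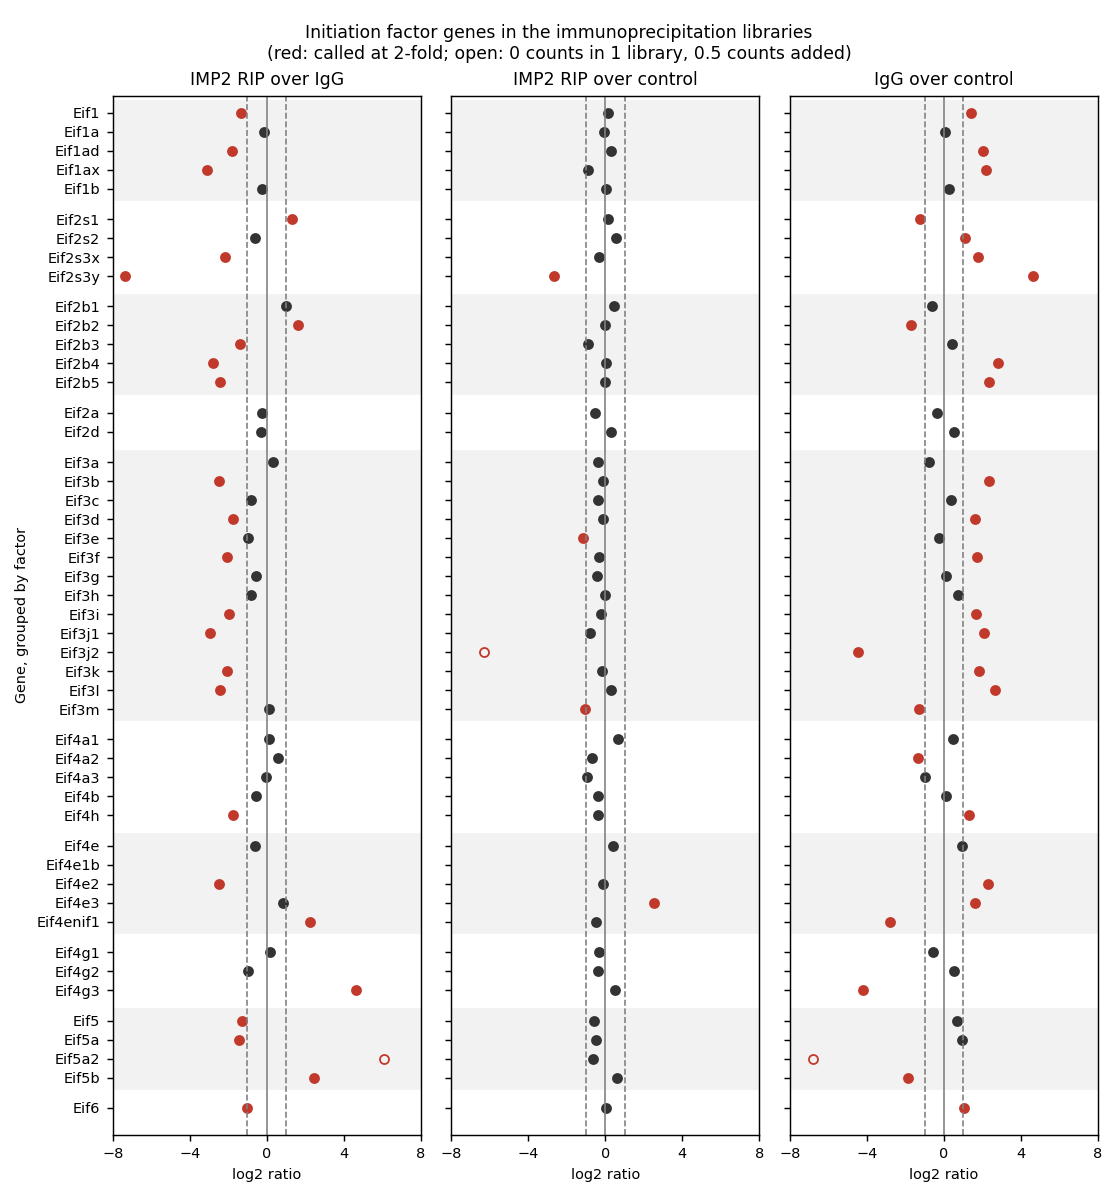
Log2 ratio of each measured gene for RIP over IgG, RIP over control and IgG over control under TMM scaling, with dashed lines at 2-fold and genes at 0 counts in 1 library as open circles. Points spread widely in both panels that hold the IgG library, while in RIP over control Eif4e3 alone is called higher.

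Set against control islets, the IgG library gives the other side of these values, and it shares the control library with the RIP comparison above. Of 15352 genes measured 73% were called, 25.7% higher and 47.3% lower. Of 47 members 19 were called higher and 9 lower under TMM, with a median log2 ratio of IgG over control of 0.54, against -0.79 for all measured genes. With the gene at 0 set at its bound the median was also 0.54. Under library totals the members' median turned to -0.38 and that of all genes was -1.71; the gap between them does not depend on the scaling. All 9 calls of lower held under the 4 scalings, and of the 19 calls of higher Eif2b4, Eif2s3y and Eif3l did. Library totals and totals without hormone and acinar genes lower every ratio of IgG over control. Calls of lower could therefore hardly be lost, while calls of higher could. The lowest ratios of IgG over control were those of Eif5a2, at least 18.4-fold lower against the floor of 3 counts in the IgG library, Eif3j2 at 0.0356 (0.00429 to 0.130) and Eif4g3 at 0.0538 (0.0423 to 0.0674). On estimated molecules Eif5a2, Eif3j2 and Eif2s1 were not called lower. The highest were Eif2s3y at 25.4 (18.8 to 34.9), Eif2b4 at 7.05 (6.54 to 7.61) and Eif3l at 6.39 (6.12 to 6.68).

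Subunits that work in fixed proportions can be set against each other per kb. Of the 12 eIF3 genes other than the subunit j pair, the highest level was 8.11 times the lowest in the labelled knockout, 13.8 times in the RIP, 36.8 times in the IgG library and 6.38 times in control islets. Eif3e was lowest in the labelled knockout, the RIP and control islets, at 7.492, 4.495 and 12.35 CPM per kb, and Eif3m in the IgG library, at 3.92 CPM per kb. The SD of the log2 level per kb over these 12 genes was 0.93 in the labelled knockout, 1.17 in the RIP, 1.85 in the IgG library and 0.87 in control islets. The 5 subunits of eIF2B gave SDs of 1.29, 1.66, 2.34 and 1.29 in the same libraries, with Eif2b3 lowest in each. Exon length counts all annotated isoforms, so genes with long minor isoforms, such as Eif3e with 6719 bases of exon, are set low on this scale in every library alike.

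Paralog shares per kb differed mainly in the immunoprecipitation libraries. Eif4g2 made up 46.6% of the summed level of the eIF4G genes in the labelled knockout, 45.6% in the RIP, 77.9% in the IgG library and 52.6% in control islets, and Eif4g3 20.6%, 26.3%, 0.907% and 16.5%. Eif1ax made up 39.4% of the summed level of the eIF1A genes in the labelled knockout, 32.7% in the RIP, 79.3% in the IgG library and 46.4% in control islets. Eif2s3y made up 0%, 1.64%, 48.1% and 11.0% of the summed level of the eIF2 gamma genes in the same libraries. Uncounted reads of Eif2s3x that also match other transcripts may raise these shares. Eif5a held at least 98.8% of the summed level of the eIF5A genes in the labelled knockout, 99.0% in the RIP, 100% in the IgG library and 98.8% in control islets. Eif1 held between 69.1% of the eIF1 pair, in control islets, and 83.5%, in the IgG library.

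**Figure D5:**
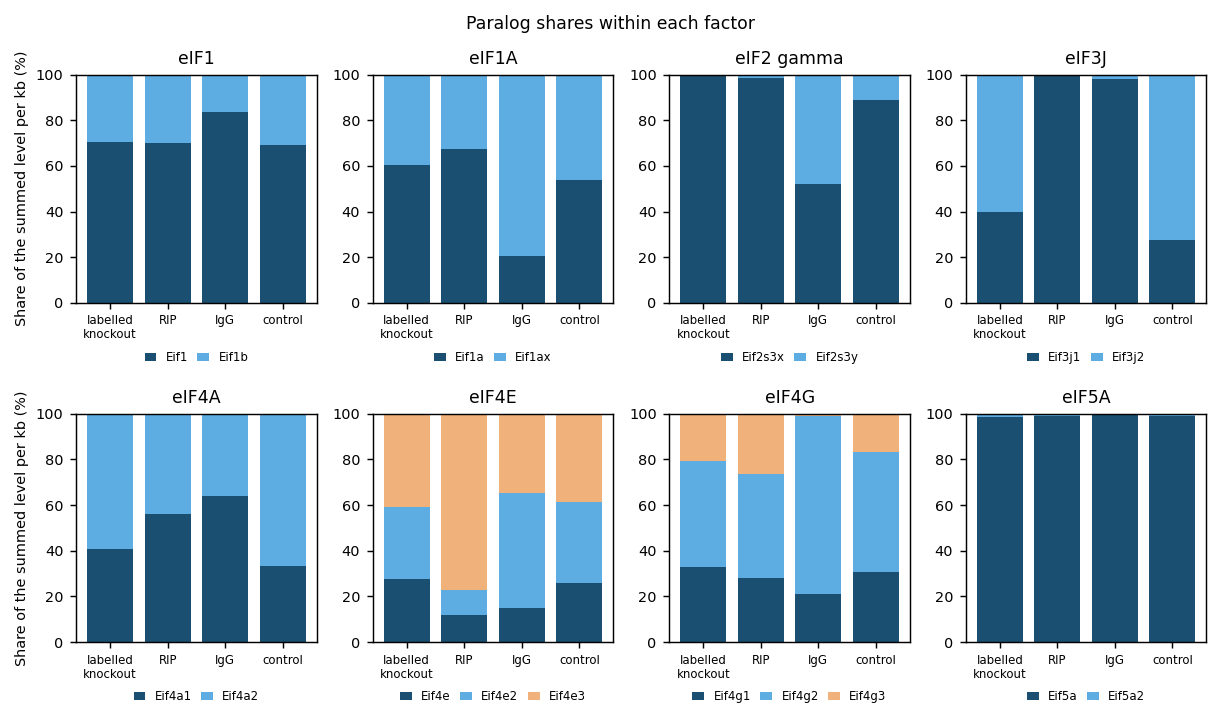
Share of each paralog in the summed level per kb of its factor, in percent, in the labelled knockout, RIP, IgG and control libraries. Eif4e3 takes 77.1% of the eIF4E bar in the RIP and 38.8% in control islets, and Eif4g3 takes 0.907% of the eIF4G bar in the IgG library.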

How the data were processed

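RNA of mouse islets was sequenced in 4 libraries, 1 per group, and groups were taken from the labelled genotypes and titles. Each deposited file gives raw counts, 1 whole number for each of 43629 gene identifiers. STAR, HTSeq and the mm10 build are named, per the submitters' processing notes. Their versions, the annotation release and the strand setting are not given in the sources used here. In each file 5 closing entries that name no gene (50.3% of the deposited total in the labelled knockout, 72.4% in the RIP, 70.5% in the IgG library, 50.8% in control islets) were kept out of library sizes. They include reads aligned more than once, which lowers the counts of genes that have near-identical copies.

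Names, types and exon lengths came from GENCODE M21 (GRCm38, the assembly of mm10), which matched 42548 identifiers. Each pair of libraries was scaled by TMM in edgeR 4.0.16 under R 4.3.3, and all genes with a mean of at least 1 CPM were compared. For log2 ratios 0.5 counts were added. Intervals are exact Clopper-Pearson 95% intervals on the counts. Since reads carry no molecular identifiers and can copy 1 molecule, intervals and floors of 3 counts cover counting error only. With 1 library per group, no p-value is given. The calling rule was tried on simulated counts with counting error only, which cannot check variation between libraries or many reads per molecule. Promoter windows came from RefSeq (GRCm38.p6). Other steps used pandas 2.3.3, SciPy 1.17.1, NumPy 2.4.6 and Matplotlib 3.10.9 under Python 3.11.15.

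The members, gene lists and limits were chosen with earlier results of these data known. Genes are named by rule: members called between labelled knockout and control, the 3 highest and 3 lowest ratios of each comparison, the 5 highest levels per kb in control islets, and paralog groups; from other lists, called genes and the 2 highest and 2 lowest ratios. Other members are given with their ratio to account for each group, and other genes named were chosen after their values were seen. Tried as alternatives were library totals, median-of-ratios size factors, totals without hormone and acinar genes, minimum levels, fold limits, an assumed variation of 0.2 per library and, added after seeing the data, counts divided by reads per molecule and totals without immune genes.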

Additional observations from a re-analysis of the deposited data

How the results depend on the processing

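No paired analysis was possible because each group has 1 library. Between labelled knockout and control, the count of members called lower went to 0 with an assumed variation of 0.2 per library and to 0 at a 2-fold limit. It was 2 or 3 under every other setting, and 0 were called higher throughout. For RIP over IgG, library totals gave 10 called higher and a median log2 ratio of -0.12. Totals without hormone and acinar genes gave 14 higher, 9 lower and a median of 0.31. For RIP over control, library totals gave 8 lower and a median of -0.51, totals without hormone and acinar genes 11 lower and -0.66, a minimum of 5 CPM 2 lower, a 1.5-fold limit 3 higher and 10 lower, and counts divided by reads per molecule 1 lower. For IgG over control, library totals gave 9 higher, 15 lower and a median of -0.38, and totals without hormone and acinar genes 3 higher, 22 lower and -0.96, where 4 members called higher under TMM turned, Eif1 to a log2 ratio of -0.0755, Eif4h to -0.21, Eif2s2 to -0.39 and Eif6 to -0.47. The shifts under other totals follow from the scaling, which moves every gene of a comparison alike. On TMM-scaled library sizes over all 4 libraries the members summed to 3717 CPM in the labelled knockout, 3694 in the RIP, 8132 in the IgG library and 4085 in control islets. The RIP, with the fewest counts, limits low genes most: 3 counts are 0.498 CPM there.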
